A study of Mus musculus with 14 samples.

Results

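The HIN-200 genes (also called PYHIN genes) of mouse chromosome 1 were followed in the RNA of CD11b+ microglia/macrophages after traumatic brain injury (TBI). Of the 33939 genes with a row in the deposited table, 10 were chosen by symbol, namely *Aim2*, *Ifi202b*, *Ifi204*, *Ifi206*, *Ifi207*, *Ifi208*, *Ifi211*, *Ifi213*, *Ifi214* and *Mndal*, and all 10 had a row with an Ensembl identifier. They were chosen with earlier results of these data known, in which members of the cluster differed between cKO and Ctrl libraries, so their differences between genotypes are given below as a description: fitted values and the number of genes past the call rule are printed beside the share of all genes past it, and nothing is read from them. The differences between hemispheres within a genotype are another contrast and were tested, with earlier results of these data known. The interaction of genotype and hemisphere is the difference between the genotype differences of the 2 hemispheres, so it is not independent of the choice, and its values are a description too. The 14 libraries fell into 4 groups. Ctrl CL and Ctrl IL held 4 libraries each, from the contralateral and the injured (ipsilateral) hemispheres of the same 4 mice, and cKO CL and cKO IL held 3 each, of which 2 mice gave both. Both genotypes were male C57BL/6 mice of 8 to 12 weeks with Cx3cr1-CreER+/-, a tamoxifen-inducible Cre driven by the promoter of a gene of microglia and other macrophages. Both genotypes received tamoxifen and then controlled cortical impact, a piston-driven contusion of the cortex, and their CD11b+ cells were sorted with magnetic beads 3 days post-TBI. The cKO mice also carried a floxed gene on both chromosomes, and Ctrl mice did not. The cKO and Ctrl libraries come from different mice, so the deletion and any other difference between these mice, in their litters or in the genome around a carried allele, cannot be told apart. The mouse numbers 784 (cKO IL only) and 788 (cKO CL only) were taken as different mice.

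HIN-200 proteins are induced by interferons and share a HIN domain, which in several members binds DNA, and most also carry a pyrin domain, through which they bind other proteins. AIM2 senses DNA in the cytosol and assembles an inflammasome with the adaptor ASC and caspase-1. The other mouse members arose by repeated duplication, resemble each other in sequence, and have been tied to interferon responses, growth control and DNA sensing. Their number and expression differ between inbred mouse strains, and *Ifi202b*, whose protein has no pyrin domain and binds DNA without assembling an inflammasome, is known for such strain differences.

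On the annotation of GRCm38 the 10 genes lie within 0.632 Mb, chr1:173350879-173982744. *Ifi208* and *Aim2* are on the plus strand and the other 8 on the minus strand. A further 4 family genes had a row, *Ifi203*, *Ifi205*, *Ifi209* and the pseudogene *Ifi203-ps*. Because the genes are induced by interferon, the windows from 250 bases before to 50 bases after their transcription starts (RefSeq, GRCm38.p6) were searched on both strands for the core of the interferon-stimulated response element, which is 2 copies of GAAA with any 2 bases between them. Of the 10 genes 9 had a window, and *Ifi204* had none in the table. The response element core was found in the windows of 7 genes, against 3.99% of the 27025 genes with a window. The following 30-base stretches, read on the strand of the gene, show that match in capitals and are printed because the same letters recur in genes whose levels went in opposite directions between genotypes.
Ifi206: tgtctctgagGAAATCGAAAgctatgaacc
Ifi213: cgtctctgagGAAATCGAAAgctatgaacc
Ifi208: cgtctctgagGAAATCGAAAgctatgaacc
Ifi214: agtctctgagGAAATCGAAAgcgatgcact
Ifi207: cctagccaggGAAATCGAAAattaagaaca
Mndal: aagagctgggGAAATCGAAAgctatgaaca
Ifi211: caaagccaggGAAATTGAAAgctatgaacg

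In 6 of these 7 genes the bases between the copies were TC, and in *Ifi211* they were TT. The matches ended between 26 and 69 bases before the start, at chr1:173491339-173491368 for the stretch of *Ifi206* and chr1:173536017-173536046 for that of *Ifi214*. The 30 bases of *Ifi208* and *Ifi213* are the same, and their windows were 98.9% identical over 285 aligned bases. A second annotated start of *Mndal* held another match on the opposite strand. Neither *Ifi202b* nor *Aim2* had the core in its window. A match in these letters is a description and not a measured binding site.

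The libraries held between 12.2 and 41.6 M reads assigned to genes (1 M being 1e+06). This depth was estimated from the step of which low values were most often whole multiples. The Ctrl IL library of mouse 3546 held the fewest. Values are reads of a gene per 1000000 reads assigned to genes (CPM), and 1 read is worth less than 0.1 CPM in every library. *Itgam*, which encodes CD11b, was at 650 to 1714 CPM in the 14 libraries. The summed level of 9 microglial genes was between 15328 and 37634 CPM, and that of 4 neuronal genes between 0.882 and 2.72 CPM. Log2 fold changes with their standard error (SE) are differences of log2(CPM + 1) after scaling, which makes changes of genes near 1 CPM smaller. The call of a gene needed a limma adjusted p (Benjamini-Hochberg over all genes tested) no higher than 0.05 together with a 1.2-fold change or more. In each series of values below, Ctrl libraries follow the order of mice 3541, 3545, 3546 and 3551, and cKO libraries that of mice 3592, 788 (CL) or 784 (IL), and 791.

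**Figure D1:**
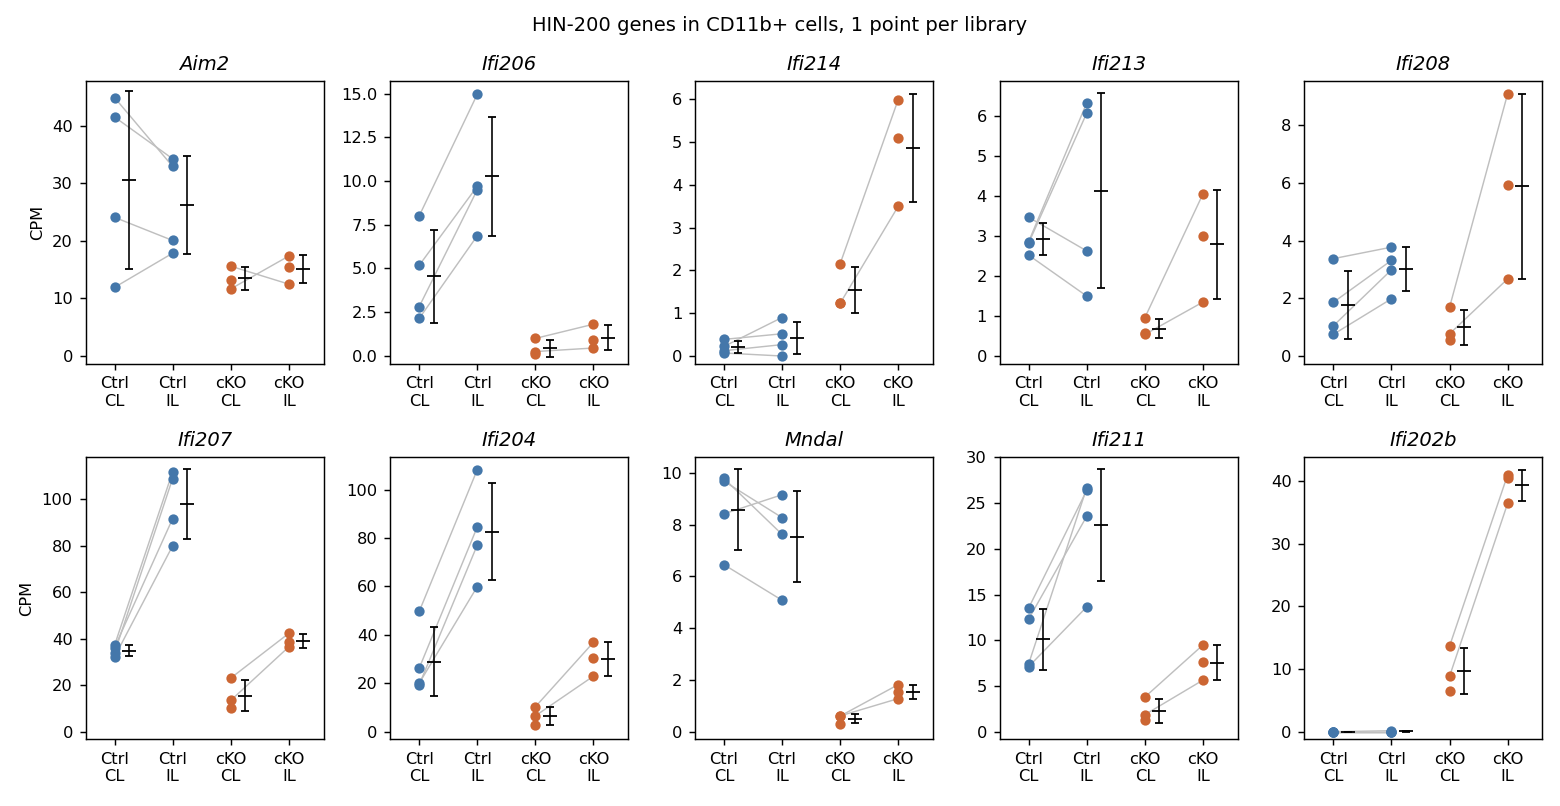
CPM of each of the 10 genes (vertical axes, linear) in the 14 libraries, by group (horizontal axes), with genes in their order along the chromosome. Points are libraries, grey lines join the hemispheres of a mouse, and black bars are the mean ± SD. *Ifi202b* lies at or near 0 in all Ctrl libraries and between 36.4 and 41.0 CPM in cKO IL, while *Mndal* and *Ifi206* lie higher in every Ctrl library than in any cKO library.

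The genes differed widely in level. Divided by the length of the annotated exons, the highest of the 10 in Ctrl IL was *Ifi207*, at 28.7 ± 4.38 CPM per kb (SD, n = 4), followed by *Ifi204* at 23.2 ± 5.63, *Ifi211* at 12.6 ± 3.42 and *Aim2* at 7.51 ± 2.43 CPM per kb. *Ifi206* and *Mndal* followed at 3.36 ± 1.11 and 2.08 ± 0.482 CPM per kb, *Ifi213* and *Ifi208* lay at 0.604 ± 0.356 and 0.573 ± 0.145, and *Ifi214* and *Ifi202b* were lowest. Of the 9 pairs of neighbours in this order, the libraries of 4 did not overlap, namely *Ifi204* over *Ifi211*, *Aim2* over *Ifi206*, *Mndal* over *Ifi213* and *Ifi208* over *Ifi214*. In cKO IL the order was led by *Ifi202b*, at 23.2 ± 1.47 CPM per kb (SD, n = 3), ahead of *Ifi207* at 11.4 ± 0.863 and *Ifi204* at 8.45 ± 1.97, and these 3 genes did not overlap with their neighbours. *Ifi206* came last there, at 0.343 ± 0.227 CPM per kb, in libraries that overlapped with those of *Ifi213* above it.

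Between IL and CL in Ctrl mice, the comparison of the injured with the uninjured side in mice without the deletion, *Ifi204* and *Ifi207* rose. Both were higher in each IL library than in any CL library. The levels of *Aim2* and *Mndal* overlapped between the sides. Of the 8 genes that passed the filter on low values, 2 were called, both higher in IL, where 6.69% of all 16376 genes tested were called, 3.74% higher and 2.95% lower. The groups of 3 genes, *Ifi211* in addition, did not overlap, as for 17.7% of all genes tested, or 6.26% with IL above CL.

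*Ifi207* (ENSMUSG00000073490, chr1:173723427-173741747), a member with pyrin and HIN domains, stood at 37.1, 36.2, 34.0 and 32.1 CPM in the Ctrl CL libraries and at 111.8, 91.6, 108.9 and 79.9 CPM in the Ctrl IL libraries. The CL libraries lay close together and the lowest IL library was above all of them. The IL library was thus higher in 4 of 4 mice. The log2 fold change was 1.53 ± 0.195 (SE), with a limma adjusted p of 0.00201. *Ifi204* (ENSMUSG00000073489, chr1:173747293-173766943), which encodes the p204 protein tied to DNA sensing and to macrophage differentiation, was at 49.7, 26.2, 19.4 and 20.02 CPM in Ctrl CL and at 108.3, 84.6, 77.1 and 59.9 CPM in Ctrl IL. Mouse 3541 was highest on both sides. Its log2 fold change was 1.64 ± 0.368 (SE), with a limma adjusted p of 0.0290. This call was lost, leaving 1 gene called, without the CL library of mouse 3545, 3546 or 3551 and without the IL library of mouse 3541 or 3545, in each case with the same direction, in fits that called 498 to 865 of all genes in place of 1096.

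*Ifi211* (ENSMUSG00000026536, chr1:173896345-173913046) was at 13.5, 12.3, 7.45 and 7.15 CPM in Ctrl CL and at 26.4, 23.6, 26.7 and 13.7 CPM in Ctrl IL. Its groups did not overlap, and its limma adjusted p was 0.0721 with a log2 fold change of 1.16 ± 0.336 (SE). *Ifi206* (ENSMUSG00000037849, chr1:173468485-173491041) had the same log2 fold change, 1.16 ± 0.412 (SE), with a limma adjusted p of 0.135, from 8.01, 5.18, 2.82 and 2.14 CPM in Ctrl CL and 14.96, 9.70, 9.50 and 6.87 CPM in Ctrl IL. Each mouse was higher on the IL side for both genes, which for *Ifi211* follows from the lack of overlap. The level of the highest CL library for *Ifi206* exceeded that of the lowest IL library. With the mouse as a block, 5 of the 8 genes were called, *Ifi206*, *Ifi208* and *Ifi211* in addition, where 20.2% of all genes were called in that fit.

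*Ifi208* (ENSMUSG00000066677, chr1:173673675-173698395) and *Ifi213* (ENSMUSG00000073491, chr1:173566283-173599274) were low in Ctrl mice, between 0.747 and 3.77 CPM and between 1.499 and 6.33 CPM in the 8 libraries, and their hemispheres overlapped. *Mndal* (ENSMUSG00000090272, chr1:173849126-173942491), which resembles human MNDA, the myeloid cell nuclear differentiation antigen, was at 8.58 ± 1.55 CPM in Ctrl CL and 7.53 ± 1.75 CPM in Ctrl IL (SD, n = 4). *Aim2* (ENSMUSG00000037860, chr1:173350879-173466040) was at 11.9, 24.1, 41.5 and 44.9 CPM in Ctrl CL and at 17.9, 20.1, 34.3 and 33.0 CPM in Ctrl IL. The same mice were low and high on both sides, and the CL library was the higher in 3 of 4 mice. The log2 fold change of *Aim2* was -0.02 ± 0.322 (SE), and its sign changed with upper-quartile and with median-ratio scaling. *Ifi214* (ENSMUSG00000070501, chr1:173519717-173535957), at or under 0.9004 CPM, and *Ifi202b* (ENSMUSG00000026535, chr1:173962568-173982744), listed at 0 in 7 of the 8 Ctrl libraries, did not pass the filter in Ctrl mice.

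Between IL and CL in cKO mice 8 of the 10 genes rose on the injured side, all but *Ifi206* and *Aim2*, where 22.7% of all 16757 genes tested were called, 12.5% higher and 10.2% lower. The log2 fold changes of the 8 ranged from 0.80 for *Mndal* to 2.23 for *Ifi204*, and the IL libraries of each lay above all CL libraries, as for 18.1% of all genes tested (42.4% did not overlap in either direction). It follows that the IL library of each was the higher in both mice that gave both hemispheres. The median log2 fold change of the 10 genes was 1.34, against 0.01 over all genes tested.

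*Ifi202b* was at 8.83, 6.53 and 13.6 CPM in the cKO CL libraries and at 36.4, 40.5 and 41.0 CPM in the IL libraries. These values stand for 228 to 375 reads in a CL library and 1093 to 1569 reads in an IL library. Its log2 fold change was 2.04 ± 0.221 (SE), with a limma adjusted p of 0.00198. *Ifi204* was at 6.50, 2.73 and 10.3 CPM in cKO CL and at 22.9, 30.4 and 36.9 CPM in cKO IL. The log2 fold change was 2.23 ± 0.374 (SE), with a limma adjusted p of 0.00635. *Ifi207* stood at 23.0, 10.1 and 13.4 CPM in cKO CL and at 42.3, 38.4 and 36.5 CPM in cKO IL. Mouse 3592 was highest for *Ifi207* on both sides, unlike for *Ifi204*, where mouse 791 was. The limma adjusted p of *Ifi207* was 0.00650 and its log2 fold change was 1.42 ± 0.240 (SE).

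Of the lower genes, *Ifi208* was at 0.763, 0.536 and 1.68 CPM in cKO CL and at 2.67, 5.92 and 9.09 CPM in cKO IL, with a log2 fold change of 1.77 ± 0.394 (SE) and a limma adjusted p of 0.0163. *Ifi214* was at 1.23, 1.24 and 2.16 CPM in cKO CL and at 3.50, 5.09 and 5.99 CPM in cKO IL, and its log2 fold change was 1.25 ± 0.244 (SE), with a limma adjusted p of 0.0105. The groups of these 2 genes did not overlap, and mouse 791 was highest in both hemispheres. *Ifi211*, *Ifi213* and *Mndal* had limma adjusted p values of 0.0129, 0.0275 and 0.0131. *Mndal* went from 0.613, 0.309 and 0.606 CPM in cKO CL to 1.28, 1.55 and 1.82 CPM in cKO IL, levels that stayed under those of every Ctrl library. *Ifi206* was at 0.246, 0.0881 and 0.998 CPM in cKO CL and at 0.449, 0.885 and 1.81 CPM in cKO IL, with a limma adjusted p of 0.236. *Aim2* was at 13.5 ± 1.99 and 15.1 ± 2.46 CPM in cKO CL and cKO IL (SD, n = 3), overlapping, with a limma adjusted p of 0.345.

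Without the IL library of mouse 791 only 4 genes were called, since *Ifi208*, *Ifi211*, *Ifi213* and *Mndal* lost their calls, and without the CL library of mouse 788 or the IL library of mouse 784 the calls of *Ifi208* and *Ifi213* were lost. These fits called fewer of all genes, 1881 without the IL library of mouse 791, 2455 without the CL library of mouse 788 and 1881 without the IL library of mouse 784, in place of 3811. With the mouse as a block, *Mndal* lost its call and 7 genes were called, where 14.2% of all genes were. *Ifi202b*, *Ifi204*, *Ifi207* and *Ifi214* were called in all 6 fits that each left out a library.

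**Figure D2:**
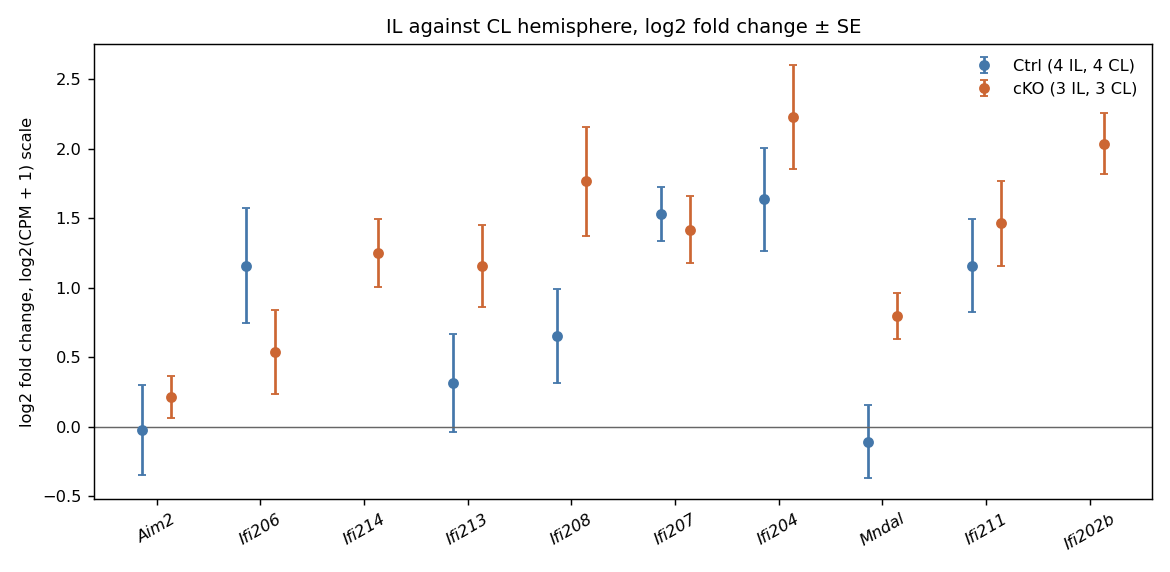
Log2 fold change of IL against CL (vertical axis, log2(CPM + 1) scale) for each of the 10 genes, in Ctrl (blue) and cKO (orange) mice, with the SE as bars. *Ifi202b* and *Ifi214* are missing in Ctrl, where they did not pass the filter. *Ifi204* and *Ifi207* are high in both genotypes and *Aim2* is near 0 in both.

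The interaction of genotype and hemisphere asks whether the injury side differed from the other side by more in cKO than in Ctrl mice. None of the 10 genes was called in the limma fit of all 14 libraries, where 0 of 18475 genes were called and 465 had an unadjusted p under 0.05. Of the 10, 3 had an unadjusted p under 0.05, *Ifi202b*, *Ifi214* and *Mndal*, and nothing is read from that count. The interaction of *Ifi202b* was 2.03 ± 0.284 (SE) on the log2 scale. Its Ctrl libraries were at or near 0 on both sides, so this value repeats its difference within cKO, 2.04, and nothing further is read from it, nor from its passing the call rule with the mouse as a random effect, where 0.0162% of all genes did, and with the library of cKO mouse 791 left out of CL. *Ifi214*, with an interaction of 1.04 ± 0.345 (SE), likewise did not pass the filter in Ctrl, entered this fit through its cKO libraries and largely repeats its difference within cKO, 1.25. For *Mndal* the interaction was 0.91 ± 0.349 (SE). *Ifi207* had the interaction nearest to 0, -0.09 ± 0.323 (SE), and its sign changed without the Ctrl IL library of mouse 3541 or the cKO CL library of mouse 3592.

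Between genotypes, the contrast behind the choice of the genes, *Ifi202b* and *Ifi214* lay higher in cKO libraries and *Ifi204*, *Ifi206*, *Ifi207*, *Ifi211* and *Mndal* lay lower, in both hemispheres and with no overlap between genotypes in either. *Aim2* lay lower in cKO without overlap in IL, and *Ifi213* did so in CL. In IL, 5 of the 10 genes met the call rule, 2 higher and 3 lower, where 0.676% of all 16873 genes tested did, 0.362% higher and 0.314% lower. In CL, 5 of the 10 met it, again 2 higher and 3 lower, where 0.869% of all 16569 genes did, 0.453% higher and 0.416% lower. Groups did not overlap for 8 of the 10 genes in each hemisphere, 2 above and 6 below, where 10.3% of all genes did not in IL (4.85% above, 5.48% below) and 10% in CL (3.98% above, 6.04% below). The calls in common were those of *Ifi202b*, *Ifi214* and *Mndal*. Nothing is read from these counts, because the genes were chosen on this contrast, and *Ifi202b* and *Ifi214* passed the filter through their cKO libraries.

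*Ifi202b* was listed at 0 in all 4 Ctrl CL libraries. With the highest level that 3 reads give in one of those libraries, 0.187 CPM, taken as the floor, the mean of 9.67 ± 3.63 CPM in cKO CL (SD, n = 3) was at least 51.8-fold higher. In Ctrl IL the gene had 0.164 CPM, the worth of 2 reads, in mouse 3546 and 0 in the others, against 39.3 ± 2.50 CPM in cKO IL. The ratio of mean CPM was 961, from a Ctrl mean of 0.0409 CPM. That mean is under the highest level that 3 reads give in a Ctrl IL library, 0.246 CPM, so the ratio is not on the basis of the bound in CL. The ratio of reads pooled over the libraries, relative to their depth, was 2306, with an exact 95% interval from 638 to 19038 that covers counting error only, and both ratios rest on the 2 reads of 1 library. *Ifi214* was at 0.224, 0.389, 0.0706 and 0.124 CPM in Ctrl CL and at 0.9004, 0.521, 0 and 0.266 CPM in Ctrl IL, so that its lowest cKO library, at 1.23 CPM, was above its highest Ctrl library. These 2 genes went up in cKO from levels near 0 in Ctrl.

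*Mndal* was at 8.41, 9.78, 9.67 and 6.45 CPM in Ctrl CL and at 9.15, 7.62, 8.27 and 5.08 CPM in Ctrl IL, and no cKO library exceeded 1.82 CPM. Its log2 fold change in cKO was -2.67 ± 0.238 in CL and -1.71 ± 0.247 (SE) in IL. *Ifi206* had log2 fold changes of -1.89 ± 0.399 in CL and -2.45 ± 0.344 (SE) in IL, and the ratio of its mean CPM in cKO to that in Ctrl was 0.0978 in CL and 0.102 in IL. The 3 genes with the highest levels per kb in Ctrl IL also lay lower in cKO. *Ifi204* had ratios of mean CPM of 0.225 in CL and 0.365 in IL, *Ifi207* of 0.445 and 0.398, and *Ifi211* of 0.232 and 0.336.

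*Ifi208* was the gene whose direction differed between the hemispheres. Its mean CPM in cKO was 0.566 times that in Ctrl in CL and 1.96 times that in Ctrl in IL, with overlapping libraries in both. *Ifi213* had ratios of 0.236 in CL and 0.678 in IL, and its libraries overlapped in IL. *Aim2* had ratios of 0.441 in CL, where its libraries overlapped, and 0.574 in IL, where the highest cKO library, at 17.4 CPM, was just under the lowest Ctrl library, at 17.9 CPM. Of the other family genes, *Ifi209* had in CL a level of 11.8 ± 4.55 CPM in Ctrl (SD, n = 4) and 13.6 ± 4.30 CPM in cKO (SD, n = 3), and in IL a level of 32.5 ± 10.7 CPM and 55.1 ± 19.7 CPM, with overlap between genotypes on both sides. *Ifi205* lay lower in cKO IL without overlap, at 2.59 ± 0.247 CPM against 6.65 ± 2.12 CPM, and overlapped in CL, while *Ifi203* lay lower in cKO CL without overlap, at 2.91 ± 1.204 CPM against 6.54 ± 1.51 CPM. *Ifi203-ps* was at or under 1.14 CPM in all libraries.

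Of the 5 calls in IL, 1 remained without the Ctrl library of mouse 3545 or the cKO library of mouse 784, 2 without that of cKO mouse 791 and 3 without that of cKO mouse 3592, and *Ifi202b* was among them in each fit. The calls of *Mndal* in IL without the Ctrl library of mouse 3541 and of *Ifi214* in IL without that of mouse 3551 were also lost. In CL, 2 of 5 remained without the Ctrl library of mouse 3545 or the cKO library of mouse 788 or 791, and *Ifi202b* and *Mndal* were called without any 1 library. *Ifi214* lost its CL call without the library of Ctrl mouse 3541, 3546 or 3551, *Ifi211* did without that of Ctrl mouse 3541, and *Ifi211* and *Ifi213* lost theirs without that of cKO mouse 3592. Over all genes, leaving out each library in turn gave 49 to 293 calls in IL, in place of 114, and 70 to 165 in CL, in place of 144. With the mouse as a random effect, *Ifi211* was added in IL, where 1.08% of all genes were called, and in CL *Ifi204*, *Ifi206* and *Ifi207* were added and *Ifi213* was lost, where 1.63% were.

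**Figure D3:**
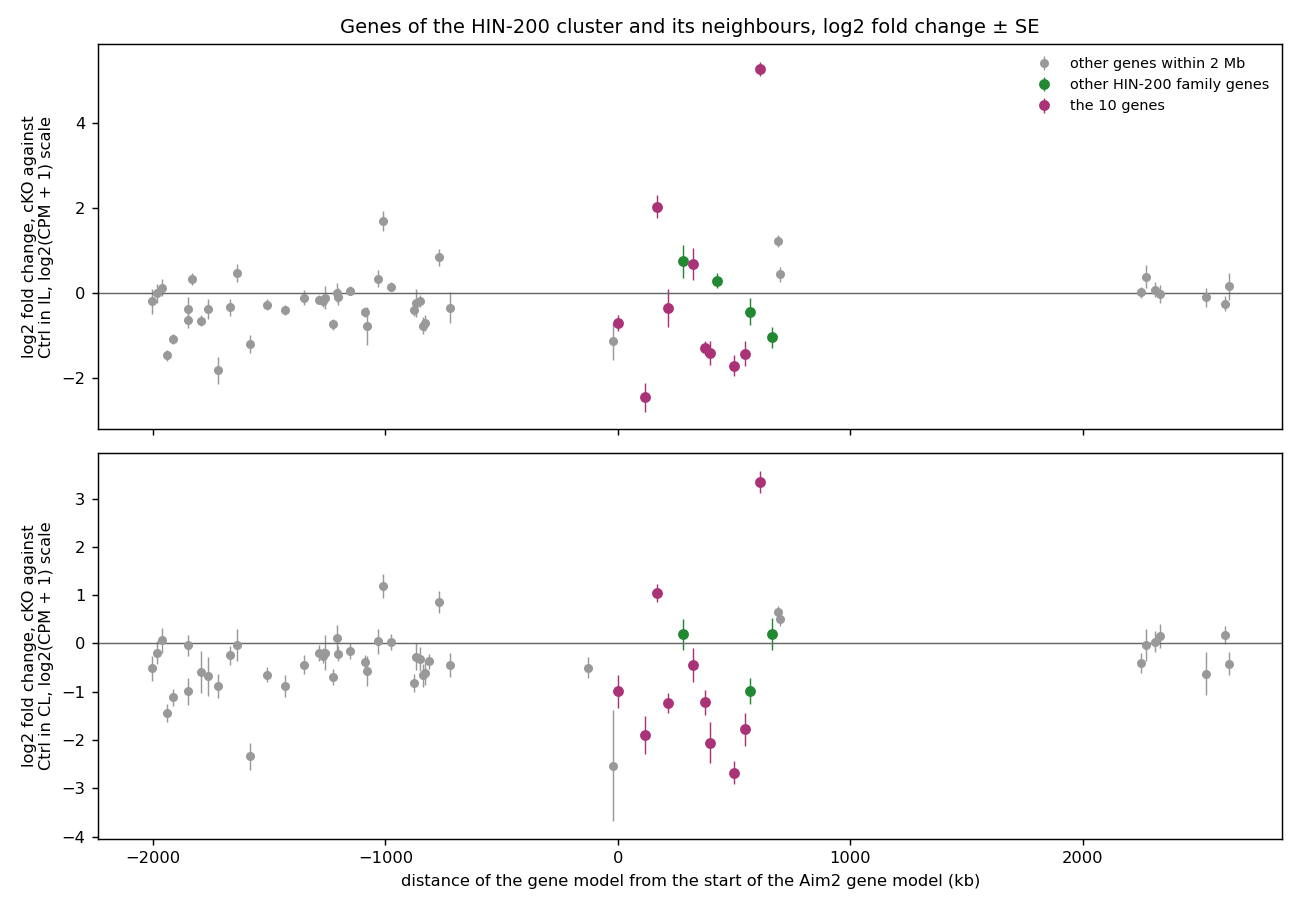
Log2 fold change of cKO against Ctrl (vertical axes, log2(CPM + 1) scale) in IL (top) and CL (bottom) against the distance from the start of *Aim2* along the chromosome in kb (horizontal axis), with the SE as bars. The 10 genes are purple, the other HIN-200 genes green and the remaining genes within 2 Mb grey. *Ifi214* and *Ifi202b* are above 0 in both panels, *Ifi202b* as the highest point, and *Ifi207*, *Ifi204*, *Mndal* and *Ifi211* between them are below 0 in both.

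Among the 10 genes, *Ifi207*, *Ifi204*, *Mndal* and *Ifi211* follow each other along the chromosome by the start of their gene models. They lay lower in cKO in both hemispheres, and the model of *Ifi211* lies within that of *Mndal*. *Ifi203-ps* lies between *Ifi204* and *Mndal*, with a ratio of mean CPM of 1.91 in IL and no call, and *Ifi203* between *Ifi211* and *Ifi202b*. The 2 higher genes are not next to each other. *Ifi214* follows *Ifi206*, which lay lower, and at the other end *Mndal* and *Ifi211*, lower, are followed by *Ifi202b*, higher. Within 2 Mb on either side of the cluster 95 other genes had a row. In IL 46 of them were tested and 6 were called between genotypes, which is 13% against 0.676% of all genes. Those with the largest change there were *Slamf7*, which encodes a receptor of immune cells, *Kcnj10*, a potassium channel gene, *Usf1*, a transcription factor gene, and *Olfr433*, an olfactory receptor gene. *Usf1* averaged 15.3 CPM in the cKO and 44.4 CPM in the Ctrl libraries of IL, and *Slamf7* 2.97 and 13.1 CPM, without overlap. In CL 3 of 47 were called, 6.38% against 0.869%, namely *Slamf1*, *Usf1* and *F11r*, all lower in cKO. Part of this stretch was known from earlier results of these data when it was looked at.

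Because duplicated genes share sequence, reads of 1 member can be counted for another, so the likeness of the transcripts was measured, in alignments of the longest transcript of each gene and in windows over all its transcripts. Of 45 pairs of the 10 genes, 7 were at least 90% identical over at least 500 bases in 1 alignment. They fell into 2 sets, *Ifi204*, *Ifi207*, *Ifi211* and *Mndal* (with *Ifi203* and *Ifi203-ps*), and *Ifi206*, *Ifi208* and *Ifi213*. *Ifi204* and *Ifi211* were 96.9% identical over 1363 bases, and *Ifi208* and *Ifi213* 96.0% over 986 bases. *Ifi211* had the highest share of 50-base windows found without mismatch in a transcript of another gene, 72.8%, most often *Ifi205*, and 56.9% of its 100-base windows were shared. The longest transcript of *Ifi205* keeps an intron and was 85.1% identical to *Ifi211* over 482 bases, but its shorter coding transcript was 90.5% identical over 1676 bases, so *Ifi205* belongs to the first set by that transcript. *Ifi206*, *Ifi208*, *Ifi204* and *Mndal* shared 25.6%, 20.9%, 20.02% and 19.6% of their 50-base windows, and *Ifi213*, *Ifi214* and *Ifi207* shared 15.6%, 14.6% and 7.29%. *Ifi202b* shared none of its 1648 windows of 50 bases, its longest alignment, with *Ifi204*, had 73.1% identity over 1247 bases, and the closest over 500 bases, with *Ifi211*, had 77.4% over 615 bases. *Ifi214* shared windows mainly with *Ifi209*, 14.5%. *Mndal* also overlaps *Ifi203* and *Gm38050* in the annotation, with 37 and 118 exon bases in common on the same strand. Its gene model also spans that of *Ifi211*, with no exon bases in common. How the reads shared by copies were assigned is not given in the sources used here. The single values of *Ifi211*, of the 2 sets and of *Ifi214*, which shares windows with *Ifi209*, are therefore uncertain. Likeness was measured in reference transcripts, and the sequences of these mice were not examined.

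**Figure D4:**
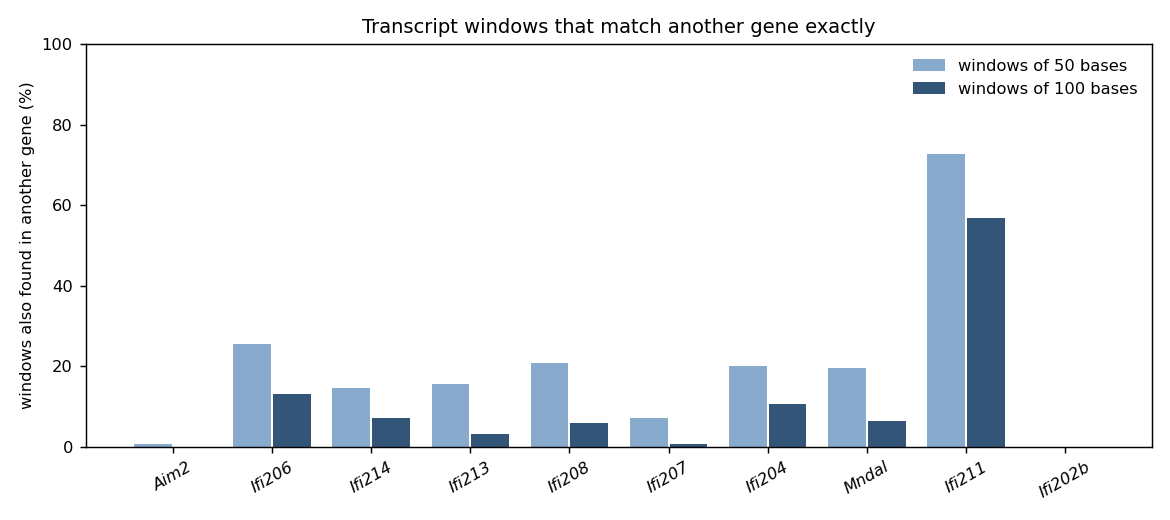
Share (vertical axis, in percent, from 0) of the transcript windows of each of the 10 genes that also occur in a transcript of another gene without mismatch, for windows of 50 bases (light) and 100 bases (dark). *Ifi211* stands highest with 72.8% and 56.9%, and *Ifi202b* has no bar.

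The levels were also summed over the copies of each set. The set with *Ifi204*, *Ifi207*, *Ifi211*, *Mndal*, *Ifi203* and *Ifi203-ps* summed in Ctrl mice to 89.2 ± 18.9 CPM in CL and 218 ± 42.5 CPM in IL (SD, n = 4), and in cKO mice to 28.1 ± 10.3 CPM in CL and 83.8 ± 7.35 CPM in IL (SD, n = 3). Its cKO IL libraries, from 77.1 to 91.7 CPM, lay under its Ctrl IL libraries, from 163 to 264 CPM. With *Ifi205* added after the data were seen, this set summed to 91.2 and 225 CPM in CL and IL of Ctrl mice and to 30.7 and 86.4 CPM in those of cKO mice. The set of *Ifi206*, *Ifi208* and *Ifi213* had 1.19 to 3.64 CPM in cKO CL against 5.41 to 14.2 CPM in Ctrl CL. It overlapped between genotypes in IL and between hemispheres in Ctrl, with 4.47 to 14.9 CPM in cKO IL and 10.4 to 24.8 CPM in Ctrl IL. All 10 genes together reached 122 ± 8.59 CPM and 255 ± 41.8 CPM in CL and IL of Ctrl mice, and 51.7 ± 13.6 CPM and 147 ± 12.7 CPM in those of cKO mice. *Ifi202b* made up 26.7% of this sum in cKO IL on average, and *Ifi207* and *Ifi204* made up 38.6% and 32.2% of it in Ctrl IL. Without *Ifi202b* the sum was 108 ± 10.3 CPM in cKO IL.

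**Figure D5:**
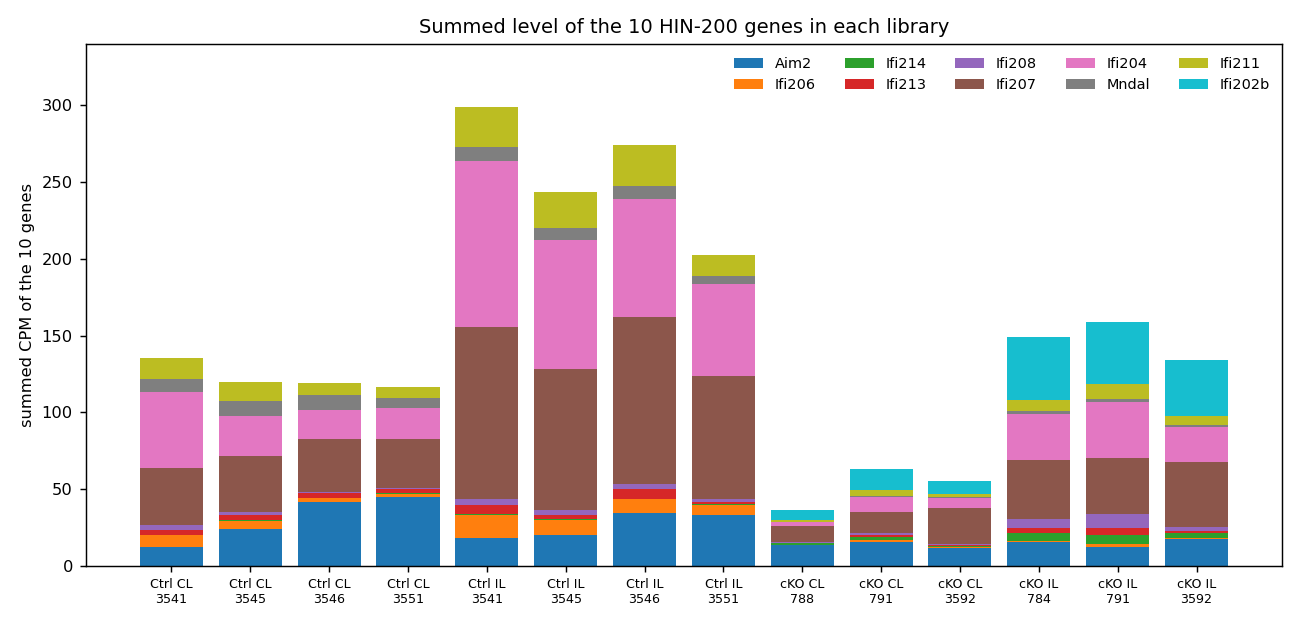
Summed CPM of the 10 genes (vertical axis, from 0) in each library, labelled by group and mouse, with the part of each gene in its colour. The Ctrl IL bars reach 202 to 299 CPM, the cKO IL bars 134 to 159 CPM, and *Ifi202b* (light blue, top) is seen in the cKO bars only.

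The rest of the interferon and DNA-sensing genes were taken from 3 lists. Of 31 interferon-stimulated genes, 2 rose in Ctrl IL over Ctrl CL, *Rsad2* and *Ifit2*, and 24 rose in cKO IL over cKO CL, led by *Oasl1*, *Rsad2*, *Ifit1* and *Isg15*, antiviral effectors, with log2 fold changes of 2.66, 2.61, 2.46 and 2.42. That is 6.45% of the list in Ctrl and 77.4% in cKO, where 3.74% and 12.5% of all genes tested were called higher. Their median log2 fold change was 0.88 in Ctrl and 1.69 in cKO, against -0.03 and 0.01 over all genes tested, and all 31 were positive in both. With the mouse as a block, chosen for these lists after the data were seen, 19 of the 31 were called in Ctrl and 26 in cKO, all higher, where 9.88% and 8.47% of all genes were called higher in that fit. Their summed level was higher in IL in 4 of 4 Ctrl mice and in 2 of 2 cKO mice with both hemispheres. By limma, 0 of the 31 were called between genotypes in IL, CL or the interaction, with 17, 1 and 0 at an unadjusted p under 0.05. In IL that is 54.8% of the list against 8.93% of all genes tested, all 17 higher in cKO, in CL 3.23% against 9.99%, lower in cKO, and in the interaction none against 2.52%. The interaction estimates of all 31 were positive, with a median of 0.70, and none was called. Of 17 genes of DNA sensing and the AIM2 inflammasome, 4 were called in Ctrl. *Ikbke*, *Zbp1* and *Nlrp3* rose and *Sting1* fell in IL, 23.5% of the list against 6.69% of all genes. In cKO 9 were called, 52.9% of the list against 22.7% of all genes, 8 higher and 1 lower, led by *Zbp1* with a log2 fold change of 2.39 and *Ikbke* with 2.22, followed by *Il1b*, with 1.11, and *Trex1*, a DNA exonuclease, with 1.04. *Sting1*, whose protein signals downstream of the cytosolic DNA sensor cGAS, fell by 0.88 in Ctrl and by 0.86 in cKO on the log2 scale. Of 16 genes of interferon receptors and signalling, 15 were tested within each genotype. *Ifngr1* alone was called in Ctrl, lower in IL, which is 6.67% of the list against 6.69% of all genes. In cKO 6 were called, 40% of the list against 22.7% of all genes, 4 higher, led by *Irf7*, a transcription factor of the interferon response, with a log2 fold change of 2.08, and 2 lower, *Ifngr1* and *Irf5*. Between genotypes limma called 0 genes of the DNA-sensing list, with 4 in IL and 2 in CL at an unadjusted p under 0.05, which is 23.5% and 11.8% of the list against the same 8.93% and 9.99% of all genes. Of the signalling list it called 0, with 5 and 1 at that p, 33.3% and 6.67%. In IL, all 4 of the former and 4 of the latter 5 were higher in cKO. With the mouse as a block, 8 genes of the DNA-sensing list were called in Ctrl and 7 in cKO, and 6 and 5 of the signalling list, where 20.2% and 14.2% of all genes were.

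The order of the mice was compared between the 10 genes and the interferon-stimulated genes. In cKO IL the summed level of the 31 interferon-stimulated genes was 1686 CPM in mouse 3592, 2642 CPM in mouse 784 and 3220 CPM in mouse 791. The same order held for 8 of the 10 genes, and the reverse order for *Ifi207* and *Aim2*. In cKO CL 3 of the 10 followed the order of that sum, and in Ctrl CL and Ctrl IL 1 did in each, while *Aim2* had the reverse order in Ctrl IL. Mouse 3541, with the highest sum in both Ctrl groups, at 1367 and 1821 CPM, was the highest library for 5 of the 9 genes above 0 in CL and for 6 of the 10 genes in IL. How many of all genes follow the same orders was not counted, so nothing is read from these counts.

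Over all 14 libraries, the gene outside the family most like *Ifi208* was *Cmpk2*, an interferon-stimulated gene, with a Pearson r of 0.97 of log2(CPM + 1) among 18461 genes. *Ifi204* was most like *Cndp2* (r = 0.97), *Ifi207* like *Shtn1* (r = 0.96), *Ifi211* like *Sh3bgrl2* (r = 0.96), *Mndal* like *Capza1* (r = 0.97), *Aim2* like *Gm15880* (r = 0.91) and *Ifi213* like *Adgre1* (r = 0.86). These are descriptions over libraries of 4 groups, of which 12 share a mouse with another.

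The RNA of genes that mark cell types also differed in level between the sides. Of 9 microglial marker genes, 7 were called lower in IL in Ctrl and 7 in cKO, where 2.95% and 10.2% of all genes were, and their summed level was 29979 to 37634 CPM in Ctrl CL against 16773 to 17927 CPM in Ctrl IL, and 27003 to 30059 CPM in cKO CL against 15328 to 16923 CPM in cKO IL. Of 8 genes of infiltrating monocytes, 4 were called higher in IL in Ctrl and 5 in cKO, where 3.74% and 12.5% of all genes were, with sums from 117 to 697 CPM in CL and from 599 to 881 CPM in IL of Ctrl mice, and from 110 to 311 CPM in CL and from 562 to 787 CPM in IL of cKO mice. Most of the rise in this sum came from *Fn1*, whose mean went from 27.4 to 457 CPM in Ctrl and from 56.8 to 476 CPM in cKO, while *Chil3* averaged lower in IL in both genotypes and *Ly6c2* in Ctrl, at 104 against 236 CPM for *Chil3* in Ctrl, without a call. The 8 neutrophil genes had sums from 1285 to 6608 CPM in CL and from 831 to 1221 CPM in IL of Ctrl mice, and from 1166 to 1979 CPM in CL and from 790 to 993 CPM in IL of cKO mice, and 5 were called lower in IL in cKO. With the mouse as a block, 7 of them were called lower in Ctrl and 6 in cKO, where 10.3% and 5.73% of all genes were. The sums over all libraries were between 3.70 and 18.7 CPM for T and NK cells, 16.1 and 43.4 CPM for B cells, 10.4 and 57.4 CPM for dendritic cells, 129 and 691 CPM for border macrophages, 51.4 and 152 CPM for oligodendrocytes, 19.8 and 93.8 CPM for astrocytes and 57.6 and 208 CPM for endothelial cells. Between genotypes, the sums did not overlap in CL for oligodendrocytes, at 51.4 to 72.3 CPM in cKO and 98.1 to 152 CPM in Ctrl, and for B cells, at 24.7 to 25.7 CPM and 28.9 to 43.4 CPM. No gene of these lists was at 0 in all libraries of a group. Their part in the levels of the HIN-200 genes was not tested. In bulk RNA, fewer cells of a type and less RNA per cell cannot be told apart. In IL the genotypes overlapped in the summed levels of microglial, monocyte and neutrophil genes. For the microglial genes only the highest cKO library, at 16923 CPM, exceeded the lowest Ctrl library, at 16773 CPM, and the cKO median was 15820 CPM. In CL the median neutrophil sums were 3018 CPM in Ctrl and 1506 CPM in cKO, with overlap.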

How the data were processed

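RNA-seq libraries of CD11b+ microglia/macrophages were made from 14 hemispheres. In Partek Flow the authors aligned reads to mm10 (GRCm38) by STAR and deposited 1 value per gene and library under the name raw counts. Each of the 14 columns sums to 1000000, so these deposited numbers are CPM. Whole multiples of 1 step (tolerance 0.03) made up 79.0% to 83.7% of the values under 100 reads in a library, too few for a count test, so limma was used. The step gave 12.2 to 41.6 M reads assigned to genes per library, with a median of 34.2 M. The authors' own tables of comparisons, with p-values and fold changes, were not used. The targeted gene is not reported here.

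CPM were divided by factors from an unweighted trimmed mean of M-values (30% of M and 5% of A trimmed), and log2(CPM + 1) was fitted with limma 3.58.1 (R 4.3.3) with a variance trend, over the libraries compared. Genes entered with the CPM of 10 reads at median depth in as many libraries as the smaller group and the worth of 15 reads in total. Simulated data were used to check the fits. The 10 genes, the 3 pathway lists, the 12 marker lists and the tests were chosen with earlier results of these data known. The text names all 10 genes and the other family genes in the table (4 of 11 listed, with the other 7 not analysed here), up to 4 called genes with the largest change per list and comparison, in the 2 Mb flanks likewise, and the most alike gene of each of the 10 whose CPM was at or over the filter in all 14 libraries. P-values measure the spread between these libraries. The main fits had no term for the mouse. In the comparisons of hemispheres and in the interaction they took both libraries of a mouse as independent.

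The mouse numbers pair the hemispheres of an animal. Across genes, deviations from the group means correlated with r from 0.181 to 0.610 (median 0.413) in the 6 mice with both hemispheres and from -0.535 to 0.502 (median -0.215) in 19 other pairs. Transcripts of GENCODE were aligned with blastn 2.17.0, and promoter windows came from RefSeq. The other steps ran in Python 3.11.15 (pandas 2.3.3, numpy 2.4.6, scipy 1.17.1), and plots in matplotlib 3.10.9. Alternatives were 3 other scalings, pseudocounts of 0.1 and 0.5, 2 other filters, a joint fit, the mouse as a block, and leaving out each library.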

Additional observations from a re-analysis of the deposited data

Results flagged for a closer look

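*Ifi202b* in the Ctrl IL library of mouse 3546 had 0.164 CPM, while the other 3 libraries of its group were at 0, so that its distance from them was the whole range of the group. The value is the worth of 2 reads in the library with the fewest reads. With 3 libraries at 0, any value above 0 in the fourth stands apart in this way whatever its size, so nothing is read from it. It was the only such value among the 19 sets of 4 Ctrl libraries of 1 gene that were looked at.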

How the results depend on the processing

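In Ctrl, 2 genes called between IL and CL became 1 with no filter on low values and 5 with the mouse as a replicate block, and 1 to 3 when a library was left out. In cKO, 8 became 4 to 8 when a library was left out. Between genotypes in IL, 5 became 2 with no filter, 3 among genes with 10 reads' worth in every library (where *Ifi202b* and *Ifi214* were not tested, nor *Ifi206* in CL), and 1 to 6 without a library, and in CL 5 became 2 with no filter, 2 with that stricter filter, and 2 to 5 without a library. In the interaction, 0 became 1 with the mouse as a random effect (replicate block) and 0 to 1 without a library. The cause was not tested. All signs that changed belonged to uncalled values. *Aim2* in Ctrl turned positive with upper-quartile scaling (0.0192) and median-ratio scaling (0.00678), and went from -0.362 to 0.156 when a library was left out, positive without the CL library of mouse 3546 or 3551 or the IL library of mouse 3541 or 3545. *Mndal* in Ctrl went from -0.268 to 0.0862, positive without the IL library of mouse 3551. The interaction of *Ifi206* turned positive with a pseudocount of 0.1 (0.00417), and that of *Ifi207* went from -0.319 to 0.208, positive without the Ctrl IL library of mouse 3541 or the cKO CL library of mouse 3592. The block changed no call of the 10 genes beyond those given. Over all genes, 1096 calls in Ctrl became 545 with no filter, 2057 in the joint fit and 3306 with the block, and 3811 in cKO became 2507, 1422 and 2380. Between genotypes, 114 in IL became 66 with no filter and 182 with the random effect, and 144 in CL became 78 and 280 (269 in the joint fit), with 76 and 85 under the stricter filter. Under the joint fit of all 14 libraries 3, 6, 5 and 6 genes were called in Ctrl, in cKO, and between genotypes in IL and CL. Depth limits *Ifi202b* and *Ifi214* in Ctrl, and *Ifi206* in cKO CL, with the worth of 3.2 reads in its lowest library.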
